A study of Mus musculus with 3 samples.

Results

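The BTG/TOB family is a group of 5 antiproliferative genes examined here, Btg1, Btg2, Btg3, Tob1 and Tob2, found by gene symbol, in a family picked with earlier results of these data known. Of these, 4 have a probe set of their own, out of 12393 genes on the array, with 9 probe sets between them. The only probe set of Btg3 is shared in the platform annotation with Gm7334, a transcribed pseudogene, so its signal is given under the probe set's name and is assigned to neither. RNA came from C2C12 cells, a mouse myoblast line, which were transfected with DGKzeta, transfected with EGFP, or left untreated. DGKzeta (diacylglycerol kinase zeta) phosphorylates diacylglycerol to phosphatidic acid, and EGFP is a fluorescent protein that serves as the transfection control. Cells were plated 18 h before FuGene transfection in serum-containing medium, and all samples carry the time label 12 h. The transfection efficiency was not given in the sources used here.

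Each of the 3 groups had 1 array, so nothing is replicated, differences are described by size alone, and p-values are absent. The number of arrays limits the precision. Values are MAS5 signals on a linear scale, and a probe set counted as measured at a signal of 107 or more, the median of all values pooled. Where 1 of 2 signals lay under this floor, the floor took its place and the ratio is a bound. Dgkz, the transfected gene, was 12.8-fold higher than EGFP and 8.98-fold higher than untreated on the array labelled DGKzeta, by its brightest probe set. Of 6 myoblast markers, 4 were measured on all 3 arrays (Myf5, Des, Cdh15 and Chrna1), while Myod1, a defining myogenic factor, was under the floor at 23.7 on DGKzeta, 26.5 on EGFP and 35.1 on untreated arrays, and Pax7 was under it too. Of 6 markers of differentiated muscle only Acta1 reached the floor, on the EGFP and untreated arrays. The markers of leukocytes (4), endothelium (3), epithelium (3) and adipocytes (2 with a probe set) were all under the floor on every array.

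BTG/TOB proteins share a conserved N-terminal domain that binds Cnot7 and Cnot8, the CAF1 deadenylases of the CCR4-NOT complex, and through them they speed up the shortening of poly(A) tails of messenger RNAs. Btg2, also called TIS21 or PC3, is an immediate early gene and a p53 target that lowers cyclin D1 and slows entry into S phase. Btg1 is a FOXO target that promotes differentiation of quail myoblasts. Tob1 and Tob2 carry a longer C-terminal part that binds the poly(A)-binding protein Pabpc1, and Tob1 restrains proliferation until it is phosphorylated by ERK kinases. Btg3, also called ANA, binds the transcription factor E2F1.

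The regions just upstream of the annotated transcription starts are printed because Tob1 is the member whose signal differed most between arrays, Btg2 is the member named in the series title, and Btg1 and Tob2 are the members with smaller ratios by their brightest probe sets. Each is 250 bases, 5′ to 3′, from RefSeq on GRCm38.p6, with matches to the 6 motifs searched in capitals, on either strand, so that a CCAAT box of the other strand reads ATTGG. All 4 genes with their own probe sets were matched by symbol. Tob1 lies on the plus strand at chr11:94211204-94211453, Btg2 on the minus strand at chr1:134079156-134079405, Btg1 on the plus strand at chr10:96616751-96617000 and Tob2 on the minus strand at chr15:81858327-81858576.
Tob1: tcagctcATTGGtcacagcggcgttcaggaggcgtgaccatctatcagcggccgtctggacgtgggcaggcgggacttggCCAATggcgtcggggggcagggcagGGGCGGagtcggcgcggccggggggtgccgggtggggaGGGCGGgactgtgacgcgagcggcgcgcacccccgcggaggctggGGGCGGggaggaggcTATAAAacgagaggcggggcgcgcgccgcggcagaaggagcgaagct
Btg2: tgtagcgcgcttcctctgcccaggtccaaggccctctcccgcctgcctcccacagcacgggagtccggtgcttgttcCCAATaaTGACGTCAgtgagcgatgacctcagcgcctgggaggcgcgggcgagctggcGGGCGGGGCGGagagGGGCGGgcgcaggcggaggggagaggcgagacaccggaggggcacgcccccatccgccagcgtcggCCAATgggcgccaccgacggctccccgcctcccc
Btg1: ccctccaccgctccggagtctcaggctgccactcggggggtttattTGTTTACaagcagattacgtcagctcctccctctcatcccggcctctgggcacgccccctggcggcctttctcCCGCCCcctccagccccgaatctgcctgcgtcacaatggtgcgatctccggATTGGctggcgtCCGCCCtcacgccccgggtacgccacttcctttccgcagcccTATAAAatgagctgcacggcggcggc
Tob2: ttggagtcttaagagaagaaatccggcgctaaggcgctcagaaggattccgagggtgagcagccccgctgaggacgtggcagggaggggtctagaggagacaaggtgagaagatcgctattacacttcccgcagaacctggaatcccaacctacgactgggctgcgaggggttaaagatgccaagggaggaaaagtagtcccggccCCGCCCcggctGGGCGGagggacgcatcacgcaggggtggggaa

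Both strands were searched for the TATA box TATAAA, the CCAAT box CCAAT, the GC box GGGCGG, the cAMP response element TGACGTCA, the forkhead site TGTTTAC and the E-box CACGTG, and neighbouring GC boxes in Btg2 overlap by 1 base. The Tob1 region holds a TATA box that starts 47 bases before the annotated start, 2 CCAAT boxes and 3 GC boxes. The Btg2 region has no TATAAA but holds a full cAMP response element starting 166 bases before the start, a motif found in 1.55% of 32851 promoter regions of the same length. Btg1 holds a TATA box starting 26 bases before the start and a forkhead site, TGTTTAC, which 3.17% of regions have. Tob2 has only GC boxes among these motifs, 2 of them. GC boxes, found in 32.7% of all regions, were in all 4, CCAAT boxes (33.8%) in 3, TATA boxes (12.4%) in 2 and the E-box (6.02%) in 0. The GC content was 60.4% in Tob2, 65.2% in Btg1, 73.2% in Btg2 and 73.6% in Tob1, against a median of 52.4% over all regions. The shares over all regions were not matched for GC content. A match describes the letters and is not a measured binding site.

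Tob1 was the family member with the widest range over the arrays by brightest probe sets. Its single probe set, 1423176_at, had a signal of 1145 in DGKzeta cells, 749.9 in EGFP cells and 505 in untreated cells. The DGKzeta signal was the highest and the untreated signal the lowest, and all 3 were well above the floor. Against EGFP, Tob1 was 1.53-fold higher in DGKzeta cells, a log2 ratio of 0.61. Against untreated cells it was 2.27-fold higher, a log2 ratio of 1.18. EGFP transfection alone went with a Tob1 signal 1.49-fold above untreated, a log2 ratio of 0.57, so the step between the transfected arrays and the step between EGFP and untreated were of similar size.

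The error of 1 probe set within these arrays was estimated from the disagreement of paired probe sets in 2251 genes. It reflects probe differences within single RNA extracts and leaves out any spread between cultures. Its SD on the log2 scale was 0.40 for DGKzeta over EGFP, 0.50 for DGKzeta over untreated and 0.27 for EGFP over untreated. Tob1 thus lay 1.54 such SDs above EGFP in DGKzeta cells, 2.38 above untreated in DGKzeta cells, and 2.12 above untreated in EGFP cells. Tob1 has no other probe set by which to repeat the measurement. How often a second probe set repeats such a difference was read from 35 genes at least 2-fold higher in DGKzeta than in untreated cells by their brightest probe set. In these, 2 were also at least 2-fold higher by the second-brightest, 23 were above 0, and the median log2 ratio was 0.21 by the second-brightest against 1.14 by the brightest.

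Ranked among all genes, Tob1 stood near the upper end in each comparison. It ranked 189 of 6536 genes measured on both arrays for DGKzeta over EGFP, with 2.88% of genes higher. It ranked 39 of 6452 for DGKzeta over untreated, with 0.589% higher, and 261 of 6612 for EGFP over untreated, with 3.93% higher. The comparisons share arrays, so these ranks are not independent of each other.

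**Figure D1:**
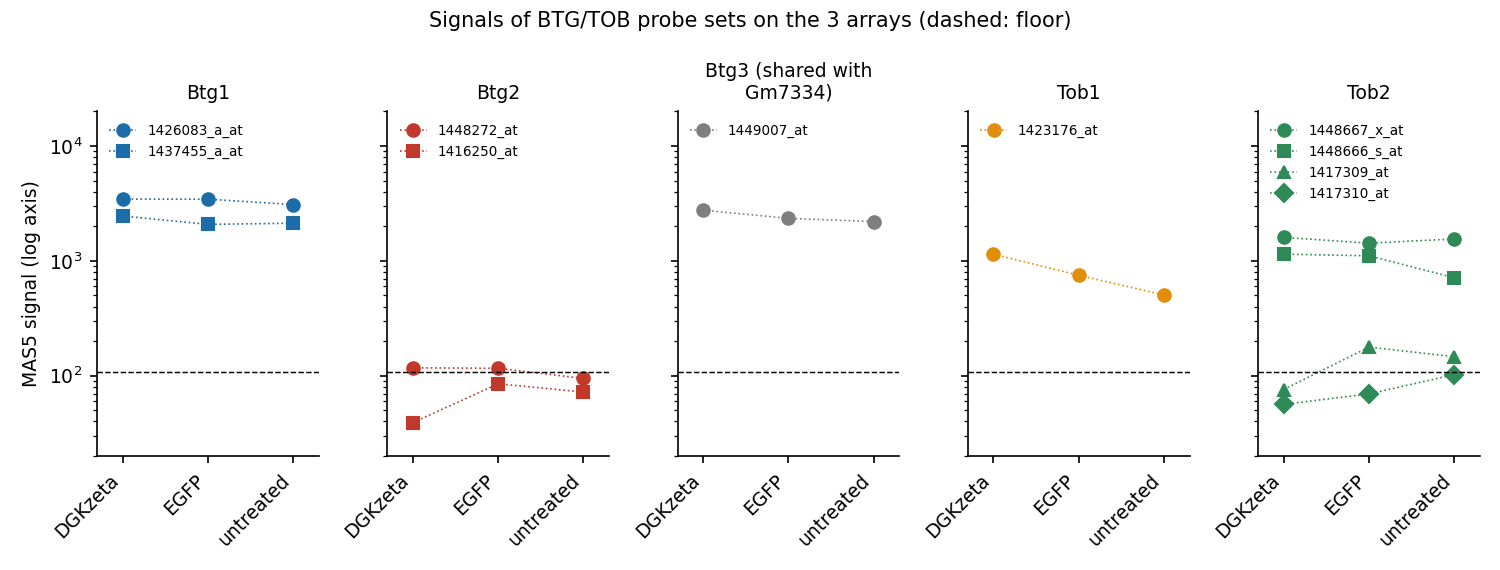
MAS5 signals (log axis) of every BTG/TOB probe set on the DGKzeta, EGFP and untreated arrays, 1 point per array and probe set, with the floor of 107 as a dashed line. Tob1 is highest in DGKzeta cells (1145) and lowest in untreated cells (505), both Btg2 probe sets lie near or under the floor, and the 4 Tob2 probe sets do not move alike.

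Tob2, the closest relative of Tob1, gave different answers from its 4 probe sets. The brightest, 1448667_x_at, had signals of 1602 in DGKzeta, 1428 in EGFP and 1552 in untreated cells. Its DGKzeta log2 ratio was 0.17 to EGFP and 0.05 to untreated. Second in brightness, 1448666_s_at, had 1145 in DGKzeta, 1108 in EGFP and 714 in untreated cells. By that probe set DGKzeta and EGFP cells were close, at a log2 ratio of 0.05, while DGKzeta was 1.60-fold and EGFP 1.55-fold above untreated. A dim probe set, 1417309_at, went the other way, with signals of 75.9 in DGKzeta, 178 in EGFP and 147 in untreated cells. Since its DGKzeta signal was under the floor, it was at least 1.66-fold lower than EGFP and at least 1.37-fold lower than untreated. The last, 1417310_at, stayed under the floor at 56.4 in DGKzeta, 69.4 in EGFP and 102 in untreated cells. All 4 carry the same source accession in the annotation, and the suffixes _x_at and _s_at mark sets that may also bind other transcripts. Without sets of these suffixes Tob2 would be represented by 1417309_at, which turns it to -0.73 against EGFP and to -0.45 against untreated on the log2 scale, both bounds.

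Btg1 had similar signals on every array by both of its probe sets. Probe set 1426083_a_at read 3454 in DGKzeta, 3447 in EGFP and 3094 in untreated cells. The other, 1437455_a_at, read 2459 in DGKzeta, 2080.4 in EGFP and 2129 in untreated cells. In log2 ratios these were 0.00 and 0.24 against EGFP and 0.16 and 0.21 against untreated, each within 1 SD of a single probe set. Quantile normalization put the first at -0.10 against EGFP, so its direction there depended on the scaling.

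Btg2, which the series title names beside cyclin D1, had signals near or under the floor, which is the median of all values. Probe set 1448272_at had signals of 117 in DGKzeta, 116 in EGFP and 94.7 in untreated cells, the last under the floor. It gave a log2 ratio of 0.01 against EGFP and was at least 1.09-fold higher than untreated in DGKzeta cells and at least 1.08-fold in EGFP cells. The other, 1416250_at, stayed under the floor on all 3 arrays, at 39.1 in DGKzeta, 85.1 in EGFP and 72.1 in untreated cells, so no fold is given for it. The ratios of 1448272_at to untreated are lower bounds, because the floor stands in for a lower untreated signal. Ccnd1, the other gene of the title, which encodes the G1 regulator cyclin D1, had log2 ratios against EGFP of 0.35, 0.21 and -2.28 from its 3 probe sets, all measured on every array.

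Probe set 1449007_at, shared by Btg3 and Gm7334, had signals of 2763 in DGKzeta, 2347 in EGFP and 2201 in untreated cells. On the log2 scale DGKzeta was 0.24 above EGFP and 0.33 above untreated, and EGFP 0.09 above untreated. The DGKzeta signal was the highest, by less than 1 SD of a single probe set in either comparison. What part of it comes from Btg3 cannot be read from this probe set.

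Counted over the family by brightest probe sets, 1 of 4 genes, Tob1, was at least 2-fold higher in DGKzeta than in untreated cells, and 0 were 2-fold lower. Over all genes measured on at least 1 of both arrays, 1.32% were that much higher and 2.85% that much lower. Against EGFP, 0 of 4 were 2-fold higher and 0 lower, where 0.332% of all genes were higher and 2.83% lower. The balance of all genes rested on the scaling. When all named probe sets were given equal medians, 164 genes were higher and 51 lower than EGFP, in place of 23 and 196, and 253 were higher and 98 lower than untreated, in place of 91 and 196. At 1.5-fold, Tob1 was the 1 gene higher than EGFP, as were 3.49% of all genes. Between EGFP and untreated cells 0 of 4 were 2-fold apart, against 0.375% of genes higher and 0.317% lower. The median log2 ratio of the 4 genes was 0.09 for DGKzeta over EGFP, 0.14 for DGKzeta over untreated and 0.14 for EGFP over untreated, where the medians of all genes were -0.02 for DGKzeta over EGFP, -0.02 for DGKzeta over untreated and 0.02 for EGFP over untreated. These medians rest on 4 genes, of which Btg2 is at the floor. Over the 9 alternatives they ran from 0.0081 to 0.45 for DGKzeta over EGFP, from 0.13 to 0.38 for DGKzeta over untreated and from 0.06 to 0.23 for EGFP over untreated.

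**Figure D2:**
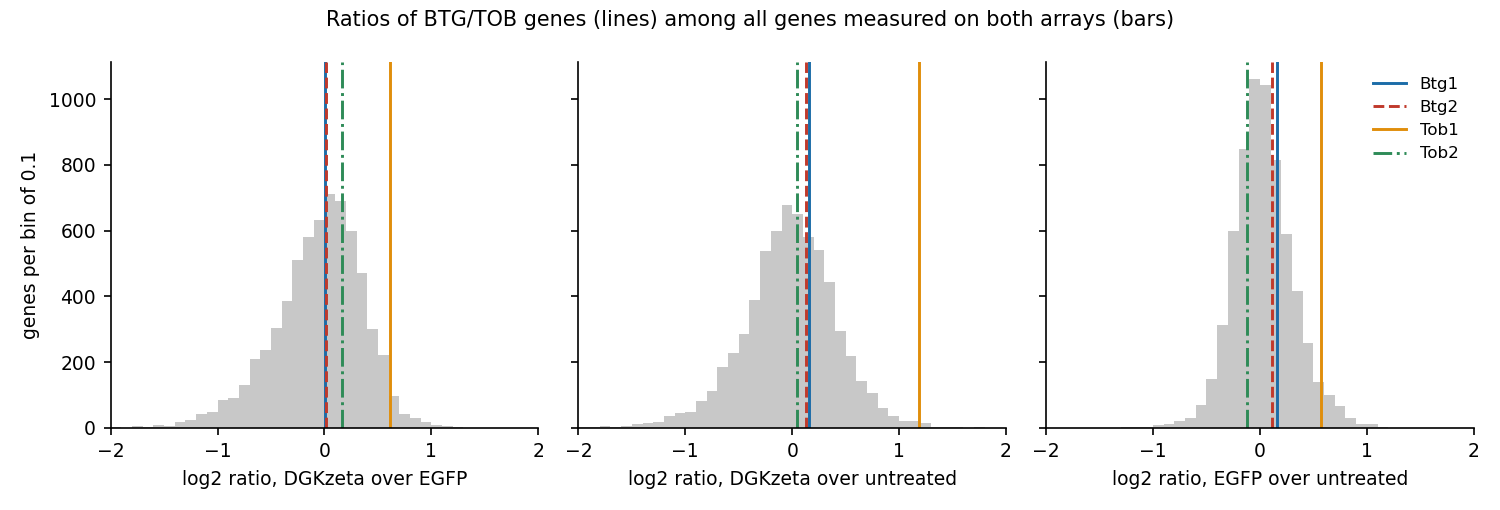
Log2 ratios of the 4 family genes by brightest probe set (vertical lines) over the distribution of all genes measured on both arrays (grey bars, genes per bin of 0.1), for DGKzeta over EGFP, DGKzeta over untreated and EGFP over untreated. Tob1 lies in the upper tail at 0.61, 1.18 and 0.57, while Btg1, Btg2 and Tob2 lie near the centre, with the Btg2 lines for both comparisons with untreated being bounds.

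The DGKzeta array differed from the others in its scale and in 1 sign of RNA quality. Its median signal was 92.5, against 119 on the EGFP and 111 on the untreated array, although the trimmed means were equal. Setting equal medians over all named probe sets moved the median of all genes by 0.36 for DGKzeta over EGFP, by 0.26 for DGKzeta over untreated and by -0.10 for EGFP over untreated. Under that scaling Tob1 stood at 0.97, 1.44 and 0.47 in these comparisons, and its sign did not turn under any of the 9 ways of processing. For Actb, the 3′ control signal divided by the 5′ one was 2.55 on DGKzeta, 1.43 on EGFP and 1.27 on untreated arrays, while for Gapdh it was 0.931 on DGKzeta, 0.902 on EGFP and 0.841 on untreated arrays. The Actb 3′ signal itself was 7437 on DGKzeta, 18961 on EGFP and 20028 on untreated arrays. Its 5′ signal was 2914 on DGKzeta, 13297 on EGFP and 15806 on untreated arrays. The Gapdh 3′ signal was 11608 on DGKzeta, 15170 on EGFP and 14890 on untreated arrays. The part of these in the family's ratios was not tested.

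**Figure D3:**
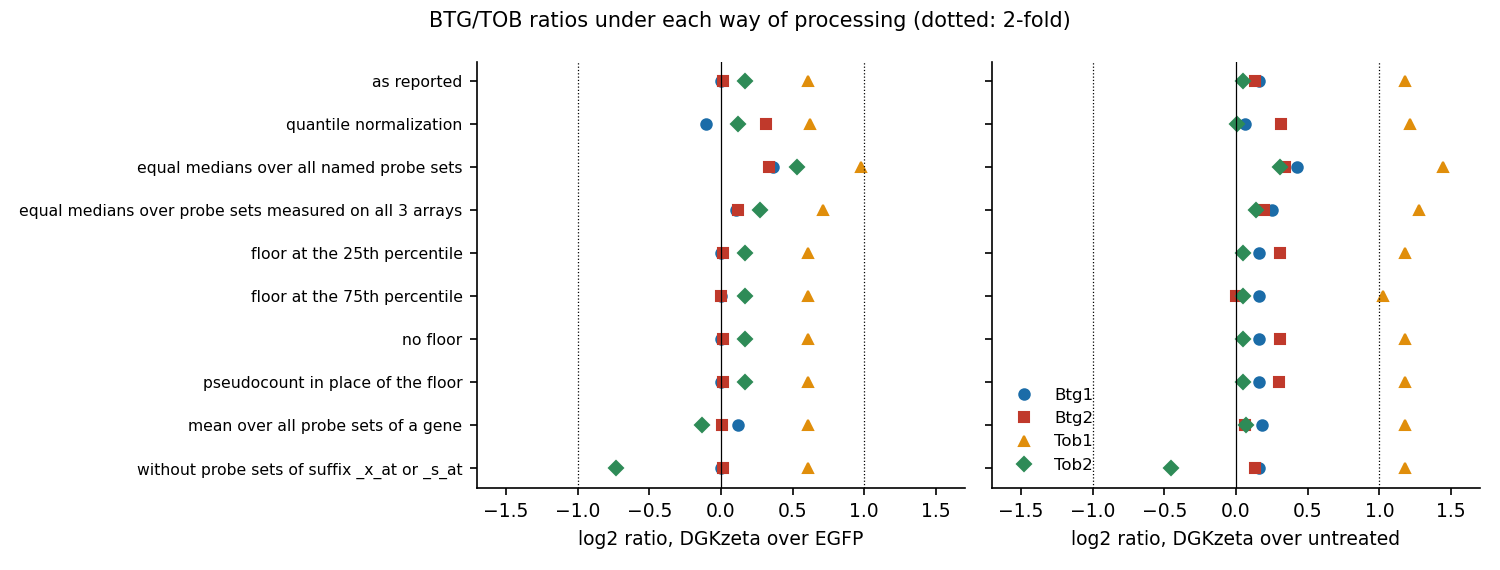
Log2 ratios of Tob1, Tob2, Btg1 and Btg2 under the reported processing (top row) and 9 alternatives, for DGKzeta over EGFP (left) and DGKzeta over untreated (right), with dotted lines at 2-fold. Tob1 stays between 0.61 and 0.97 against EGFP and between 1.03 and 1.44 against untreated, while Tob2 moves to -0.73 and -0.45 (bounds) when sets of suffix _x_at or _s_at are left out.

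The genes whose pattern over the 3 arrays lay nearest to that of Tob1 were sought among 6426 genes measured on all arrays, by the Euclidean distance between their pairs of log2 ratios to untreated. With 3 arrays such likeness is a description only. The nearest was Gadd45a, a growth arrest and DNA damage gene, at a distance of 0.038, with signals of 355 in DGKzeta, 240.5 in EGFP and 158 in untreated cells. Next came Setd6, a lysine methyltransferase, at 0.046, and the interferon-inducible gene Ifi204 at 0.068. The zinc finger gene Zfp943 and Paip2, a protein that binds the poly(A)-binding protein and represses translation, followed, at 0.070 and 0.071. Paip2 had signals of 2303 in DGKzeta, 1598 in EGFP and 1024 in untreated cells.

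CCR4-NOT and other deadenylation genes include the complex that BTG/TOB proteins bind, along with other deadenylases and poly(A)-binding proteins. On the log2 scale the list had a median of -0.21 against EGFP and -0.19 against untreated over 13 measured genes of 17 listed. Of the 13, 5 were above 0 and 8 below in each comparison with DGKzeta, 0 were 2-fold higher and 2 were 2-fold lower, beside 2.83% of all genes lower against EGFP and 2.85% against untreated. Over all measured genes, 3283 of 6927 were above 0 against EGFP and 3317 of 6868 against untreated. In both comparisons the count of 2 was 0 with the floor at the 75th percentile and 1 with the mean over probe sets. Against EGFP 1 gene was 2-fold higher with the mean over probe sets and under both equal-median scalings. The lower genes were Cnot6l, a catalytic deadenylase, and Cnot3, a scaffold subunit. Cnot6l had signals of 152 in DGKzeta, 663 in EGFP and 647 in untreated cells, a log2 ratio of -2.13 against EGFP, but its next probe set gave 0.01. Cnot3 had 200.3 in DGKzeta, 658 in EGFP and 556 in untreated cells, a log2 ratio of -1.72 from its only probe set. Cnot7 and Cnot8, the subunits that BTG/TOB proteins bind directly, were under 2-fold apart by every probe set. Cnot7 was at 0.50 against EGFP and its other sets at 0.08 and 0.26. Cnot8, named for its role after its values were seen, was at -0.22 and, by its other set, at -0.47. Cnot2, a further scaffold subunit, was at 0.91, with other sets between 0.20 and 1.15, Tnks1bp1 was at -0.81, and Pan2, a deadenylase outside CCR4-NOT, at 0.59. The list's median turned to 0.15 against EGFP when all named probe sets were given equal medians. Under that scaling the median of all genes was 0.33, in place of -0.02, so the list lay below it both ways.

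Other binding partners had a median of 0.36 against EGFP and 0.26 against untreated over 8 measured genes of 13. Of the 8, 5 were above 0 against EGFP and 6 against untreated, with 0 at 2-fold in either direction. Over all genes, 0.332% were 2-fold higher and 2.83% lower than EGFP, and 1.32% higher and 2.85% lower than untreated. The count above untreated was 1 with no floor, the pseudocount, the 25th percentile floor, quantile normalization and equal medians over all named probe sets. Under these, in that order, 124 of 6866, 120 of 6866, 353 of 10214, 130 of 6934 and 253 of 6933 genes were 2-fold higher. Quantile normalization and those equal medians also put 1 gene 2-fold above EGFP, beside 50 of 6936 and 164 of 6935 genes. The 25th percentile floor put 1 gene 2-fold below untreated, beside 524 of 10214 genes. E2f1, the Btg3 partner, was at -0.96 against EGFP by its brightest probe set and at -0.02 by the other. The cytoplasmic polyadenylation factors Cpeb2 and Cpeb4, of the protein family through which Tob recruits deadenylases to messengers, were at 0.77 and 0.45. Cpeb2 had signals of 197 in DGKzeta, 115 in EGFP and 35.2 in untreated cells, the last under the floor. Its ratio of DGKzeta to untreated was thus a bound, at least 1.83-fold. Smad5, a BMP signal transducer that Tob1 can restrain, was at 0.48. This median was -0.12 with the floor at the 25th percentile and -0.060 with it at the 75th, so its direction rested on the floor.

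Upstream regulators had a median of 0.25 against EGFP and 0.41 against untreated over 5 genes, 4 of them above 0 in each comparison and 0 at 2-fold. Over all genes, 0.332% were 2-fold higher and 2.83% lower than EGFP, and 1.32% higher and 2.85% lower than untreated. When all named probe sets were given equal medians, 1 listed gene was 2-fold higher than EGFP and 1 than untreated. Under that scaling 164 of 6935 genes were 2-fold higher than EGFP and 253 of 6933 than untreated. The other 6 listed genes have no probe set of their own here. Mdm2, a p53 target and ubiquitin ligase of p53, had signals of 1683 in DGKzeta, 1036 in EGFP and 979.8 in untreated cells, a log2 ratio of 0.70 against EGFP by the brightest and 0.11 by the other probe set. Rela, an NF-kB subunit, was at -0.45. Foxo3, a forkhead factor, was at 0.36 and, by its other measured set, at -0.03. Skp2, a ubiquitin ligase subunit that targets Tob1, was at 0.25 by its brightest probe set. Its 5 other sets gave 0.13, -0.15, -0.16 (a bound), -0.17 and -0.78 against EGFP. Averaging all probe sets of a gene put the median at -0.15 against EGFP.

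G1 cyclins, kinases, inhibitors and RB proteins, downstream of the family in the cell cycle, had a median of -0.12 against EGFP and -0.02 against untreated over 13 measured genes of 15. Of these, 6 were above 0 in each comparison, 0 were 2-fold apart from EGFP, and Ccnd2, encoding cyclin D2, was the 1 gene 2-fold lower than untreated. Over all genes, 0.332% were 2-fold higher and 2.83% lower than EGFP, and 1.32% higher and 2.85% lower than untreated. Ccnd2 had signals of 365 in DGKzeta, 718 in EGFP and 807 in untreated cells. Against EGFP its log2 ratio was -0.98, and its 3 other measured probe sets gave -0.86, -1.13 and -1.19. Against untreated it was at -1.15, and those sets gave -0.54, -0.69 and -0.98, none of them at 2-fold. The count of 1 gene was 0 when all named probe sets were given equal medians, with the floor at the 75th percentile, and with the mean over probe sets. Under these, in that order, 98 of 6933, 54 of 3884 and 153 of 6872 genes were 2-fold lower than untreated. Ccnd3 was at -0.64, Ccne1 at -0.48 and Rb1, the retinoblastoma gene, at 0.55. When all named probe sets were given equal medians, the list's median was 0.24 against EGFP, opposite in sign. That scaling also raised the median of all genes, from -0.02 to 0.33, so the list stayed below it. Between EGFP and untreated cells the medians of the 4 lists lay between -0.06 and 0.08, and 0 of their genes were 2-fold apart as reported. Among the other binding partners, 1 was 2-fold higher there with no floor, the pseudocount or the 25th percentile floor. Under these, in that order, 56 of 6932, 52 of 6932 and 391 of 10330 of all genes were 2-fold higher. With the 25th percentile floor 1 was also 2-fold lower, beside 255 of 10330 genes.

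**Figure D4:**
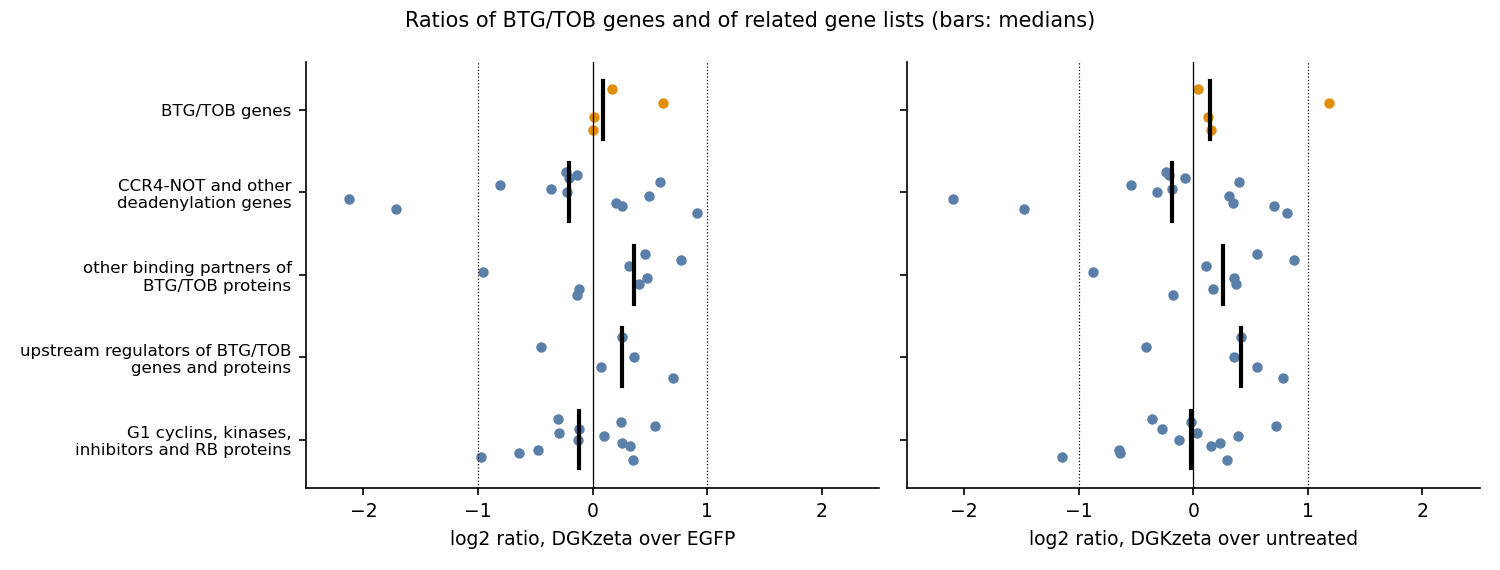
Log2 ratios by brightest probe set of the 4 BTG/TOB genes (orange) and of 4 lists of related genes (blue), for DGKzeta over EGFP (left) and DGKzeta over untreated (right), 1 point per gene measured on at least 1 of both arrays, with the median as a black bar and dotted lines at 2-fold. Tob1 is the only point right of the 2-fold line against untreated, and Cnot6l and Cnot3 are the points left of it against EGFP.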

How the data were processed

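RNA of 3 samples was measured on 1 Affymetrix array each, labelled by the one-cycle protocol per the labels. The deposited intensity values are MAS5 probe set signals, as the submitters' processing notes state, and linear by their range. The MAS5 settings were not given in the sources used here. The mean between the 2nd and 98th percentile was 499.9 to 500.0 on every array, so values were used with no further scaling. Of 22690 probe sets, 64 are controls, 20380 have 1 gene symbol, 691 several and 1555 none; symbols were checked by gene ID in RefSeq GRCm38.p6 (20351 found, 0 differed). A gene is represented by its brightest probe set (highest mean floored log2 value). The family and the lists were chosen with earlier results of these data known. Named genes are all member probe sets, Dgkz, Ccnd1, list members at 2-fold in any comparison and up to 4 others with the largest ratios against EGFP, the 5 genes nearest to the member of widest range, and the control probe sets; markers are named for the label check, and exceptions are marked where they stand. Alternatives were 3 scalings, 2 floors, no floor, a pseudocount of 3.17, the mean over probe sets, no _x_at or _s_at sets, and rules of 1.5-fold and 3-fold. Counting was tested on simulated data. Tools were Python 3.11.15 with pandas 2.3.3 and numpy 2.4.6, and matplotlib 3.10.9 for figures.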

Additional observations from a re-analysis of the deposited data

How the results depend on the processing

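With 1 array per group, an alternative was compared by size, and a ratio was taken as moved when it shifted by at least the SD of a single probe set. The count of family genes 2-fold higher in DGKzeta than in untreated cells was 1 under all 9 alternatives in scaling, floor and probe sets, and 0 by the 3-fold rule. Against EGFP the count was 0 under those 9 and 1 by the 1.5-fold rule. The median of the other binding partners for DGKzeta over EGFP, 0.36 as reported, was -0.12 with the floor at the 25th and -0.060 with it at the 75th percentile, where other genes count as measured. That of the upstream regulators was -0.15 with the mean over probe sets, in place of 0.25. The median of the 4 family genes for DGKzeta over EGFP was lowest, at 0.0081, without sets of suffix _x_at or _s_at. It was highest, at 0.45, when all named probe sets were given equal medians. The medians of all genes were -0.05 and 0.33 under these settings, so the family's median lay above them in both. No paired analysis was possible because each group has 1 array. Btg2 and the dim Tob2 probe sets are limited by signal near or under the floor, and no alternative replaces a second array.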

Other observations

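Btg4, a further family gene outside the 5 and named after its values were seen, was under the floor on every array, with signals of 1.31 in DGKzeta, 16.0 in EGFP and 5.33 in untreated cells. Pabpc1, the poly(A)-binding protein bound by Tob proteins, was also named after its values were seen. Its bright probe set 1418883_a_at had signals of 12686 in DGKzeta, 13982 in EGFP and 14678 in untreated cells, a log2 ratio of -0.14 against EGFP. Its dim probe set 1453840_at had 494 in DGKzeta, 94.5 in EGFP and 59.6 in untreated cells, at least 4.61-fold higher in DGKzeta than on either other array. Cnot6, a deadenylase paralogous to Cnot6l and named in the same way, likewise split between probe sets: 3 of its 4 had log2 ratios of 0.20, -0.04 and -0.10 against EGFP, while 1426685_a_at, with signals of 325 in DGKzeta, 1322 in EGFP and 1369 in untreated cells, had -2.02. These splits were described and their cause was not tested.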
